A study of Rattus norvegicus with 11 samples.

Results

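The comparison set out here is serum deprivation against serum in rat fibroblasts that carried an E2F1-expressing adenovirus. Its members are the 2 arrays titled as serum deprivation and the 2 arrays titled as serum among the E2F1 arrays, 4 of the 11 arrays of the series. The cells were REF52, an established line of rat embryo fibroblasts, and transcript levels were read on Affymetrix RAE230A arrays from total RNA. All cultures, controls included, had been grown in medium with 10% serum and held in 0.25% serum for 48 hours before they were infected with the E2F1 virus or with a control virus labelled CMV. After infection they received deprivation medium, serum, or serum together with LY294002, an inhibitor of phosphoinositide 3-kinase. Besides the 4 arrays compared, the groups used here are 2 arrays of E2F1 cells in serum with LY294002, 1 array of deprived control virus cells, 2 of control virus cells in serum and 2 of control virus cells in serum with LY294002. Neither the dose of LY294002 nor the time from infection to harvest is stated in these sources.

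Serum carries growth factors, lysophospholipids, hormones and lipids that drive resting fibroblasts into the cell cycle, and its removal sends untransformed fibroblasts into quiescence. E2F1 is a transcription factor held in check by the retinoblastoma protein in quiescent cells. When it is supplied from a virus, it can switch on genes of DNA synthesis and mitosis without serum, and without survival signals it can also drive cell death. The comparison therefore addresses which transcripts still follow serum in cells that carry excess E2F1.

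The values are signal intensities on a linear scale. Changes are differences of log2(signal + 16) between group means with their standard errors (SE), on 2 deprived and 2 serum arrays, and "called" means a Benjamini-Hochberg adjusted p under 0.05 from limma over all 15866 probe sets tested. The median change over all of them was -0.10. Arrays of 1 group differed by a median of 0.19 (deprived) and 0.21 (serum) on the log2 scale. Whether the 2 arrays of a group stand for separate cultures is not in the labels, and the p-values then cover only array-to-array spread, which may be technical. All 18 fibroblast markers examined were measured, with Vim, Fn1, Col1a1 and Col1a2 at signals of 11731 or more on the 4 arrays, and 0 to 2 of the 18 lay under a signal of 32. Their summed signal was 95447 and 109126 on the deprived and 104994 and 115919 on the serum arrays. Markers of epithelial, endothelial, blood, neural, muscle, liver, pancreas and fat cells summed to 2761 and 2504 on the deprived and 5001 and 4972 on the serum arrays, and most of the difference was Myod1, described below. No probe set carries E2f1 as its only symbol, and the introduced transcript is not analysed here. As a measure of RNA quality, the 3' probe sets of the GAPDH and beta-actin controls exceeded the 5' ones by 0.56 and 0.51 (log2) on the deprived and by 0.19 and 0.18 on the serum arrays. In control virus cells the difference was 0.76 on the deprived array and 0.14 and 0.12 on the serum arrays. RNA quality thus went with the medium with either virus, and the 2 cannot be told apart in deprivation against serum.

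In deprived E2F1 cells the Notch ligand Jag1, the secreted growth factors Bmp4 and Gas6, the matrix collagen Col8a1, the calcium regulator Pln and the energy-sensing kinase subunit Prkaa2 rose. The myogenic factor Myod1, the prostaglandin synthase Ptgs1, the adhesion protein Parvb and the secreted protein Srpx2 fell. Of the 15866 probe sets, 37 were called (0.233%), 24 of them higher (0.151%) and 13 lower (0.0819%), and each differed at least 2-fold on the log2(signal + 16) scale. None of the 37 overlapped between media, and a lack of overlap by itself, whatever the size, held for 60.1% of all probe sets. The called probe sets cover 18 genes that rose and 11 that fell, and 7 further ones have no symbol or several. For 3 of these genes (Cd248, Ptpn7 and Wnk1) another probe set, not called, had the other sign. All 4 arrays reached a signal of 32 for 20 of the 37, and the offset sets part of the size for the rest. At an unadjusted p under 0.05 there were 3106 probe sets (19.6%), against 793.3 if nothing changed. In bulk RNA, fewer cells that express a gene and less RNA per cell cannot be told apart.

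To show the sequence ahead of called genes, the 250 bases before the annotated start are given for 5 genes that rose and for Parvb, which fell. They come from RefSeq (build GRCr8), are written 5′ to 3′ on the gene's strand, and have in capitals the GC box (GGGCGG, on either strand) and the E-box (CACGTG). Promoters were found for 17 of the 18 genes that rose and 8 of the 11 that fell. Pln lies on the plus strand (chr20:33172244-33172493), Jag1 on the minus strand (chr3:144894884-144895133), Bmp4 on the minus strand (chr15:22101934-22102183), Gas6 on the plus strand (chr16:82747426-82747675), Prkaa2 on the minus strand (chr5:125108325-125108574) and Parvb on the plus strand (chr7:117239988-117240237).
Pln: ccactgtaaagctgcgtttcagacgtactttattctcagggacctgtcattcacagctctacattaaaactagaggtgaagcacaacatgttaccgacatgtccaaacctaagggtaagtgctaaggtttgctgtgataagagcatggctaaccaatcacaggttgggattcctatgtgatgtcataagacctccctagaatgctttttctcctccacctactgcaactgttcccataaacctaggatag
Jag1: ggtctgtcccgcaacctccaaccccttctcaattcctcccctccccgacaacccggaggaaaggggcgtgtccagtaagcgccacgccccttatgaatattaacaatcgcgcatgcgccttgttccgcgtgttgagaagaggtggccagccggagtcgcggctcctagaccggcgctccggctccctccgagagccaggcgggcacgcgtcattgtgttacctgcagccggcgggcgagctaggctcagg
Bmp4: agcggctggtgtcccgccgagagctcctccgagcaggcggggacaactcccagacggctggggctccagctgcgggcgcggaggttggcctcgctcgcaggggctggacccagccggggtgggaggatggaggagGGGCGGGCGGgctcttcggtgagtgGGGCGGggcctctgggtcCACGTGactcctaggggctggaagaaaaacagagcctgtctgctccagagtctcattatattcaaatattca
Gas6: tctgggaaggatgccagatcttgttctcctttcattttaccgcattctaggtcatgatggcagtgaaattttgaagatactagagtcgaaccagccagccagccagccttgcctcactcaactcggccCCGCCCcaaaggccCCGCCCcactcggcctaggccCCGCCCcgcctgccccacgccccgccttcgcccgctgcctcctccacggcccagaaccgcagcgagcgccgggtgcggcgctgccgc
Prkaa2: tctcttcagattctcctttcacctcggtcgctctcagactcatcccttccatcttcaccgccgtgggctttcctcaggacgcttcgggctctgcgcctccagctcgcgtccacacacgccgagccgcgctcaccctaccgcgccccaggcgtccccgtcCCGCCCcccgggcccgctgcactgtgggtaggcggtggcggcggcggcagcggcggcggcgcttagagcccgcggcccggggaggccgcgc
Parvb: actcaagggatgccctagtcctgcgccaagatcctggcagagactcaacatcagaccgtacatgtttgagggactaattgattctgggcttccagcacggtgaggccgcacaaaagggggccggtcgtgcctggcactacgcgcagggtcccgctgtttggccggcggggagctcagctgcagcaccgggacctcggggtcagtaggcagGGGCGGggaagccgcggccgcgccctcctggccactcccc

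The GC box was present in 8 of the 17 promoters of genes that rose and 4 of the 8 of genes that fell, against 30.5% of 33469 rat promoters of the same length. These 33469, also the base of the shares below, were not limited to genes on the array. In the printed set it occurs 3 times in Bmp4, where 2 copies overlap, 3 times in Gas6, and 1 time each in Prkaa2 and Parvb. The E-box occurred in 2 of the 17 (Bmp4 and C11h21orf91) and in 0 of the 8, against 5.59% of all. TATAAA, the TATA box, occurred in 2 of the 17 (Krtap1-5 and Ptprd) and 2 of the 8 (Nppb and Slco2a1), against 12.9% of all. The sterol element TCACCCCAC (0.409% of all), the E2F element TTTCGCGC or TTTGGCGC (0.636%), the forkhead element GTAAACA (3.21%), the cAMP element TGACGTCA (1.59%) and the CArG box (1.5%) were found in 0 of the 25 on either strand. A match describes the letters of the window only.

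Among secreted and surface ligands, Jag1, which activates Notch receptors on neighbouring cells, had signals of 1115 and 1496 on the deprived arrays and 166 and 187 on the serum arrays. It rose 6.80-fold (2.77 ± 0.22, adjusted p = 0.0133). Bmp4, a bone morphogenetic protein, read 1131 and 1323 deprived and 285 and 330 in serum, and rose 3.84-fold (1.94 ± 0.17, adjusted p = 0.0138). Gas6, the growth-arrest-specific ligand of Axl-family receptors, read 1531 and 1650 against 716 and 720. It rose 2.19-fold (1.13 ± 0.16, adjusted p = 0.0492), while a second probe set of Gas6 gave 0.25 ± 0.29 (adjusted p = 0.672). In all 3 genes both deprived arrays lay above both serum arrays, with the replicates of a group closer to each other than to any array of the other group.

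Matrix and surface genes of mesenchymal cells were the next group. Col8a1, a short-chain collagen made by vessel walls and activated fibroblasts, read 3992 and 3699 on the deprived and 633 and 721 on the serum arrays, a 5.58-fold rise (2.48 ± 0.32, adjusted p = 0.0413). Omd, the matrix proteoglycan osteomodulin, read 215 and 231 against 67.2 and 57.2 and rose 3.06-fold (1.62 ± 0.18, adjusted p = 0.0335). Aoc3, a surface amine oxidase of vascular smooth muscle and fat, read 214 and 243 against 17.2 and 23.1 (2.76 ± 0.36, adjusted p = 0.0413). No fold is given for Aoc3 or for other probe sets with an array under a signal of 32, since the offset of 16 then sets part of the size. Cd248, a surface protein of stromal fibroblasts, read 92.3 and 85.5 against 10.8 and 6.16 (2.10 ± 0.26). A second probe set of Cd248 pointed the other way without being called (-0.74 ± 0.21, adjusted p = 0.142), so the direction of this gene is not settled by the array.

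The called genes also include 4 that encode a calcium regulator or an ion channel, a grouping made after the calls were seen. Pln encodes phospholamban, the small membrane protein that restrains the calcium pump of the sarcoplasmic reticulum, and is the called gene that 2 probe sets reported. The first read 757 and 791 on the deprived and 82.3 and 101 on the serum arrays, a 7.38-fold rise (2.88 ± 0.22, adjusted p = 0.0133). The second read 901 and 878 against 131 and 134, a 6.10-fold rise (2.61 ± 0.33, adjusted p = 0.0413). Both probe sets thus placed the deprived arrays well above the serum arrays with near-equal replicates. Itpr1, the inositol trisphosphate receptor that releases calcium from the endoplasmic reticulum, read 602 and 753 against 271 and 211 and rose 2.70-fold (1.43 ± 0.20, adjusted p = 0.0469). Nalcn, a sodium leak channel, read 303 and 344 against 107 and 99.7 and rose 2.84-fold (1.50 ± 0.20, adjusted p = 0.0413). Scn2a, a voltage-gated sodium channel subunit, rose from 2.94 and 1.85 to 48.7 and 41.7 (1.73 ± 0.17, adjusted p = 0.0238), which is low on both sides.

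Kinases and phosphatases formed the last sizeable group of genes that rose. Prkaa2, a catalytic subunit of AMP-activated protein kinase, read 241 and 160 on the deprived arrays and 13.2 and 12.9 on the serum arrays (2.88 ± 0.38, adjusted p = 0.0443). Map4k2, a kinase upstream of stress-activated MAP kinases, read 311 and 266 against 80.7 and 72.6 and rose 3.28-fold (1.71 ± 0.22, adjusted p = 0.0413). Ptprd, a receptor-type tyrosine phosphatase, read 873 and 1048 against 79.9 and 179 and rose 7.12-fold on 1 probe set (2.83 ± 0.40, adjusted p = 0.0492). Its brighter probe set gave the same direction without being called, with 941 and 1079 against 183 and 364 (1.90 ± 0.45, adjusted p = 0.109). Ptpn7, a phosphatase of MAP kinases, rose on 1 probe set (1.55 ± 0.18, adjusted p = 0.0413), and its other probe set gave -0.97 ± 0.41 (adjusted p = 0.244). The remaining named genes that rose were Krtap1-5, a keratin-associated protein (2.21 ± 0.27), C11h21orf91 (1.79 ± 0.23) and Cnpy4, an endoplasmic reticulum protein (1.20 ± 0.17).

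**Figure D1:**
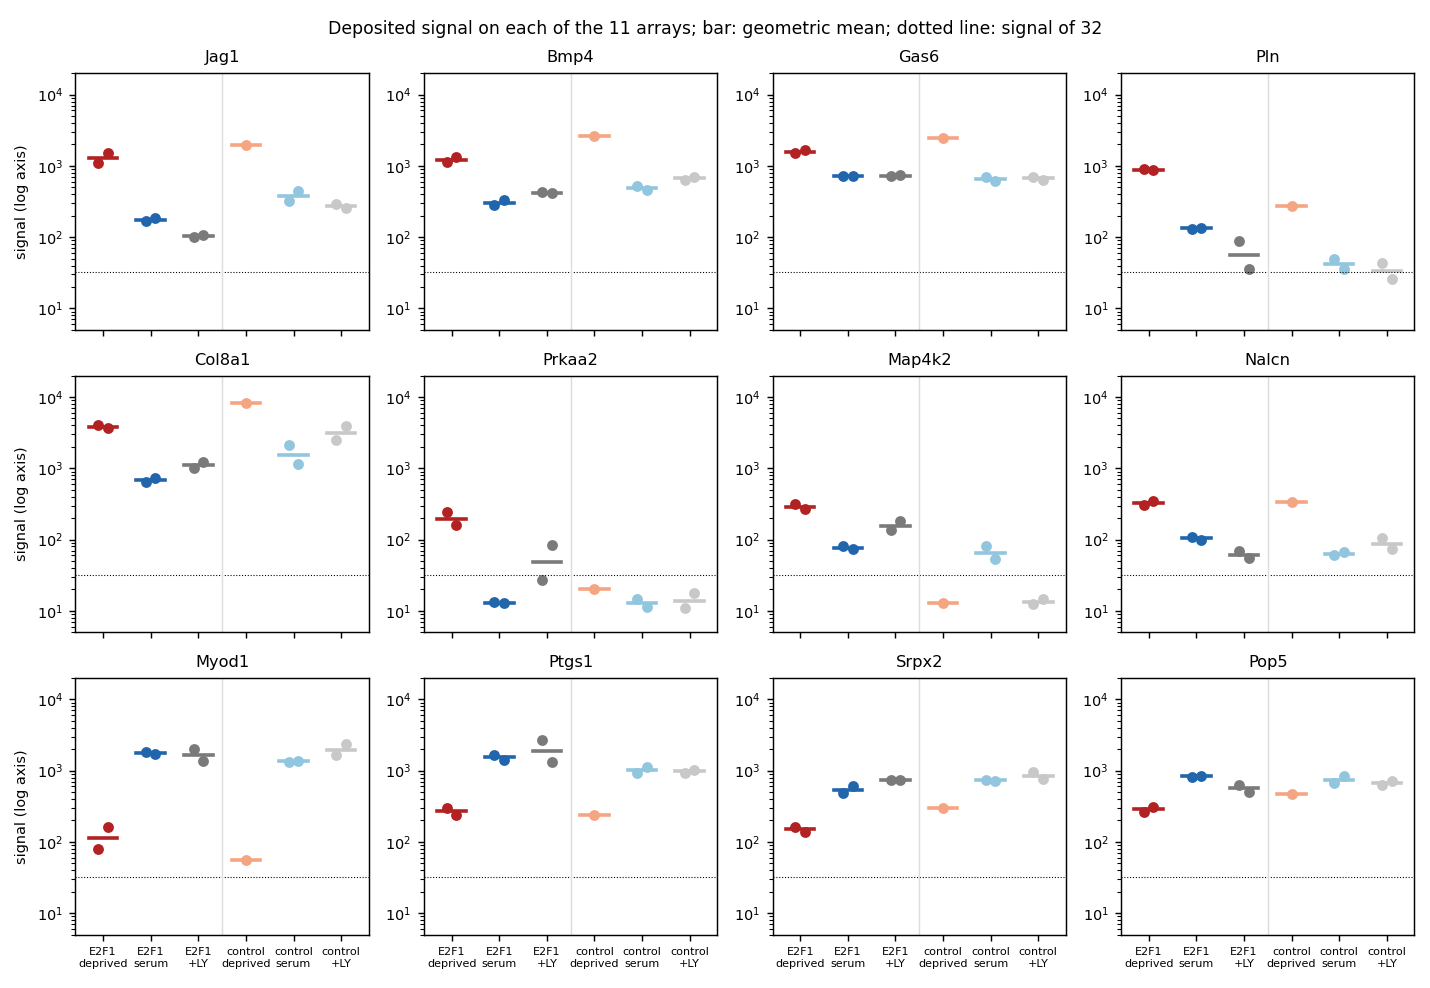
Deposited signal (log axis) of 12 called genes on each of the 11 arrays, by virus and medium (+LY is serum with LY294002). Points are arrays, bars are geometric means and the dotted line marks a signal of 32. The 2 deprived E2F1 arrays lie above the 2 E2F1 serum arrays in the first 8 panels and below them in the last 4, while Prkaa2 and Map4k2 are at 20.0 and 12.9 on the deprived control virus array.

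Of the genes that fell, Myod1 had the largest change. It encodes the master regulator of skeletal myogenesis, and its signals were 78.4 and 160 on the deprived arrays and 1802 and 1726 on the serum arrays, a 13.8-fold fall (-3.79 ± 0.33, adjusted p = 0.0138). The 4 other muscle markers examined did not pass the test. Desmin, the muscle intermediate filament (Des), read 156 and 123 against 530 and 559 (-1.86 ± 0.62, adjusted p = 0.178). Myogenin, which acts downstream of Myod1 in muscle, read 172 and 98.5 against 115 and 179 (Myog, -0.13 ± 0.35), and the embryonic myosin Myh3 stayed between 3.31 and 5.76. The Myod1 arrays of the 2 media were far apart relative to their replicates, while the Myog arrays overlapped and Myh3 was near 0 throughout. Mycn, a MYC-family proto-oncogene, read 15.5 and 15.1 deprived against 55.9 and 55.7 in serum (-1.20 ± 0.16, adjusted p = 0.0413), close to the offset. Barhl1, a homeobox factor of the nervous system, read 19.8 and 16.9 against 78.0 and 89.7 (-1.54 ± 0.20, adjusted p = 0.0413).

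Both called genes with a role in prostaglandin synthesis or transport fell. Ptgs1, the constitutive cyclooxygenase, read 298 and 241 on the deprived and 1679 and 1415 on the serum arrays and fell 5.48-fold (-2.46 ± 0.32, adjusted p = 0.0413). Slco2a1, a prostaglandin transporter, read 12.4 and 15.9 against 114 and 68.9 (-1.81 ± 0.25, adjusted p = 0.0492), and its other probe set gave -0.66 ± 0.23 (adjusted p = 0.187). The inducible cyclooxygenase Ptgs2 was not called and pointed upward, with 870 and 382 deprived against 99.7 and 214 in serum (1.86 ± 0.48, adjusted p = 0.126).

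Among the other genes that fell, Parvb, an actin-binding partner of integrin-linked kinase, read 141 and 170 against 1180 and 639, a 5.19-fold fall on 1 probe set (-2.37 ± 0.33, adjusted p = 0.0489). Its brighter probe set gave 425 and 421 against 1210 and 1276 (-1.52 ± 0.35, adjusted p = 0.103), again with no overlap between media. Srpx2, a secreted ligand of the urokinase receptor, read 164 and 138 against 490 and 600 and fell 3.35-fold (-1.74 ± 0.19, adjusted p = 0.0335). Pop5, a protein subunit of ribonuclease P, read 266 and 309 against 827 and 828 and fell 2.79-fold (-1.48 ± 0.19, adjusted p = 0.0413). Nppb, which encodes the natriuretic peptide BNP, fell from 59.6 and 69.6 to 20.3 and 17.5 (-1.21 ± 0.17, adjusted p = 0.0492). For 2 further genes the called probe set was dim and the brightest one did not pass the test. These are Sipa1l2, a GTPase-activating protein (-2.20 ± 0.26, brightest probe set -0.45 ± 0.26), and Wnk1, a kinase of ion transport (-1.67 ± 0.23, brightest probe set 0.04 ± 0.20).

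The count of 37 rests on the spread pooled over the groups, and single arrays moved it by more than 1.5 times. It was 0 without any 1 of the 4 arrays compared, 2 without either control virus serum array, 18 without either control virus array with LY294002 and 408 without either E2F1 array with LY294002, and all 37 kept their sign each time. With a covariate for the 3' to 5' difference limma called 3 probe sets, 2 of them among the 37, and all 37 kept their sign. The second E2F1 array with LY294002, in serum, had the highest 3' to 5' difference of all (0.90), and there 22 of the 24 that rose and 8 of the 13 that fell lay nearer to the serum mean than to the deprived mean. That array also carries the inhibitor, so it does not show the 3' to 5' difference alone.

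Genes that serum is known to induce early had a median above that of all genes in deprived E2F1 cells. The same held in deprived control virus cells (0.70, against 0.05 for all genes), so it is not particular to E2F1 cells. Of 27 measured early transcription factors limma called 0 in E2F1 cells, with 9 at an unadjusted p under 0.05 on the higher and 3 on the lower side. Their median change was 0.33. For all 10411 genes the corresponding shares were 8.32% higher and 10.8% lower, with a median of -0.09, and both deprived arrays lay above both serum arrays in 24.1% and below them in 36.9%. Over the alternative settings the median changed sign at least once for 18 of the 33 lists and kept it for 15, this list among them. Fos, the AP-1 subunit that serum induces, read 1611 and 1064 deprived and 106 and 533 in serum (2.35 ± 0.84, adjusted p = 0.197), and a dimmer probe set of Fos gave -0.18 ± 0.27. Its relative Fosb read 600 and 337 against 73.4 and 133 (2.01 ± 0.43, adjusted p = 0.0941), and Zfp36, an RNA-binding protein that destabilises cytokine transcripts, read 1250 and 1246 against 510 and 624 (1.12 ± 0.24, adjusted p = 0.0941). The zinc finger factor Egr1 read 7489 and 6331 against 4216 and 5635 (0.50 ± 0.28, adjusted p = 0.362). On the probe sets with signals given, both deprived arrays were above both serum arrays for all 4 genes. Among the inhibitors of differentiation, Id2 read 861 and 969 against 2563 and 2316 (-1.40 ± 0.25, adjusted p = 0.077) and Id3 read 2912 and 3434 against 5371 and 5838 (-0.82 ± 0.17, adjusted p = 0.094).

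Over 25 measured members, actin and contractile genes regulated by serum response factor and YAP had a median of 0.30 (0.39 in control virus cells). In E2F1 cells 0 were called, with 7 at an unadjusted p under 0.05 above and 1 below. Myl9, the regulatory light chain of smooth muscle myosin, read 2689 and 3321 deprived and 486 and 932 in serum (2.12 ± 0.34, adjusted p = 0.0656). Cald1, the actin-binding protein caldesmon, read 10153 and 11017 against 3319 and 4077 (1.52 ± 0.34, adjusted p = 0.0955), and the tropomyosin Tpm1 read 5477 and 5641 against 2952 and 3305 (0.83 ± 0.16, adjusted p = 0.0812), while 5 dimmer probe sets of Tpm1 gave -0.39 to 0.24. The arrays of the 2 media did not overlap for these 3 genes on the brightest probe sets, nor for 60.1% of all probe sets. Ankrd1, a cardiac ankyrin repeat protein and YAP target, pointed down with 739 and 723 against 2539 and 3831 (-2.07 ± 0.47, adjusted p = 0.102). Other YAP targets differed less, with Ccn1 at 2860 and 2988 against 909 and 1807 (1.18 ± 0.58, adjusted p = 0.313) and Ccn2 at 11677 and 11996 against 9016 and 11169 (0.24 ± 0.18, adjusted p = 0.51).

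In the TGF-beta family 1 of 18 measured genes was called, Bmp4, and 7 reached an unadjusted p under 0.05 above and 6 below. Tgfb3, a TGF-beta ligand, read 4305 and 5377 deprived and 822 and 1563 in serum (2.07 ± 0.34, adjusted p = 0.0674). Its relative Tgfb2 read 1251 and 1408 against 464 and 858 (1.05 ± 0.29, adjusted p = 0.141), while Tgfb1 read 433 and 554 against 839 and 891 (-0.80 ± 0.30, adjusted p = 0.212). The 3 TGF-beta ligands therefore did not share a sign, and none of the 3 was called. Bmpr2, the type II receptor for bone morphogenetic proteins, read 1008 and 922 against 264 and 240 (1.87 ± 0.34, adjusted p = 0.077). Among collagens and matrix proteins 1 of 44 was called (Col8a1), and the list median was 0.00, with a range of -0.04 to 0.34 over the alternative settings. In the list of growth factors and receptors 1 of 30 was called (Gas6), with 8 at an unadjusted p under 0.05 on each side and a median of -0.20 that turned positive (0.03) under 1 alternative setting. Igfbp4, a binding protein that restrains insulin-like growth factors, read 155 and 83.6 against 964 and 1191 (-3.06 ± 0.80, adjusted p = 0.129). F3, the tissue factor that starts coagulation, read 573 and 592 against 53.8 and 92.9 (2.78 ± 0.41, adjusted p = 0.0544).

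**Figure D2:**
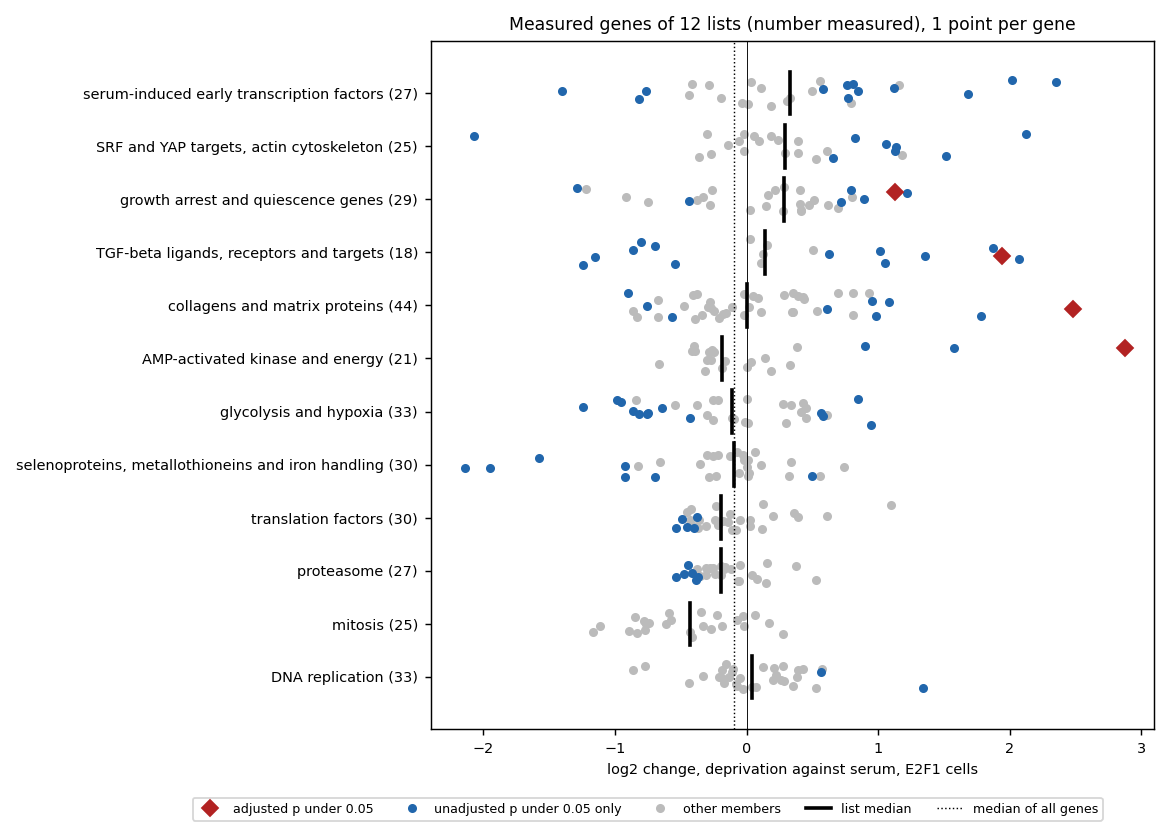
Log2 change from serum to deprivation in E2F1 cells for the measured genes of 12 lists, 1 point per gene by its brightest probe set. Bars are list medians and the dotted line is the median of all genes (-0.09). The medians run from -0.43 (mitosis) to 0.33 (early transcription factors), and the 4 diamonds are Gas6, Bmp4, Col8a1 and Prkaa2.

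Cell cycle genes gave no call between the media in E2F1 cells. Of 33 DNA replication genes limma called 0, with 2 at an unadjusted p under 0.05 above and 0 below, and the median was 0.04, which changed sign under 3 alternative settings. Of 25 mitosis genes 0 were called and 0 reached an unadjusted p under 0.05, although 22 lay below 0 (59.1% of all genes did) and the median was -0.43. Both deprived arrays lay below both serum arrays for 16 of the 25 and above them for 1, against 36.9% and 24.1% of all genes. The SE of these genes also takes in the spread between arrays of the groups not compared here. Top2a, the topoisomerase that untangles chromosomes, read 1653 and 1799 deprived and 3226 and 2705 in serum (-0.77 ± 0.55, adjusted p = 0.477). The mitotic kinase Cdk1 read 1466 and 1480 against 2182 and 1607 (-0.34 ± 0.35, adjusted p = 0.618), and its cyclin Ccnb1 read 1027 and 1017 against 2025 and 1463 (-0.74 ± 0.58, adjusted p = 0.514). Deprived E2F1 cells had signals in the range of 1017 to 1799 for these 3 genes, where the deprived control virus array read 133 to 186.

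Cyclins of the D type, which couple growth signals to the cell cycle, did not share a sign. Ccnd1 read 2316 and 2573 deprived and 4476 and 5172 in serum (-0.97 ± 0.36, adjusted p = 0.208), and its 2 other probe sets gave -0.74 ± 0.48 and -0.92 ± 0.46. Ccnd2 read 387 and 442 against 223 and 203 (0.91 ± 0.17, adjusted p = 0.0784). Ccne1, the E cyclin that E2F proteins induce, read 2954 and 2611 against 2086 and 1550 (0.62 ± 0.29, adjusted p = 0.289). Among the 29 measured growth arrest genes 1 was called, Gas6, with 5 at an unadjusted p under 0.05 above and 2 below and a median of 0.28. The cyclin-dependent kinase inhibitor Cdkn1b read 3056 and 3343 against 2156 and 1552 (0.80 ± 0.44, adjusted p = 0.35). A dimmer probe set of Cdkn1b gave a larger rise that was not called either (2.21 ± 0.49, adjusted p = 0.0955). Cdkn1a, a p53 target, read 9638 and 11350 against 8963 and 9014 (0.22 ± 0.23, adjusted p = 0.626) with -0.11 ± 0.44 on its other probe set.

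Genes of cell death gave no call. Of 28 pro-apoptotic genes 0 reached an unadjusted p under 0.05 above and 4 below, with a median of -0.16 (positive under 1 alternative setting), and of 17 anti-apoptotic genes 1 did above and 1 below, with a median of -0.24. Apaf1, the caspase-activating scaffold and a direct E2F1 target, read 412 and 335 deprived and 303 and 358 in serum (0.16 ± 0.26, adjusted p = 0.751), with overlapping arrays, and its other probe set gave -0.41 ± 0.59. The initiator caspase Casp8 read 163 and 155 against 299 and 391 (-1.03 ± 0.25, adjusted p = 0.11).

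In the list of glycolysis and hypoxia genes 0 of 33 were called, with 4 at an unadjusted p under 0.05 above and 9 below, and a median of -0.11. Pfkp, the platelet isoform of phosphofructokinase, read 725 and 807 deprived and 1435 and 1558 in serum (-0.95 ± 0.19, adjusted p = 0.0855). Enolase (Eno1) read 3157 and 3509 against 6554 and 6657 (-0.99 ± 0.23, adjusted p = 0.108), and the muscle phosphofructokinase Pfkm read 709 and 752 against 1574 and 1949 (-1.24 ± 0.42, adjusted p = 0.182). The hypoxia-induced genes Vegfa and Adm of the same list, chosen after their values were seen, had values above 0 on their brightest probe sets. The angiogenic factor Vegfa read 905 and 856 against 516 and 449 (0.85 ± 0.20, adjusted p = 0.108), and its other probe set gave -0.50 ± 0.25 (adjusted p = 0.323). The vasodilator peptide Adm read 148 and 224 against 90.5 and 83.1 (0.95 ± 0.32, adjusted p = 0.184). On the probe sets whose signals are given here, the arrays of the 2 media did not overlap for any of these 5 genes, nor for 60.1% of all probe sets. Over the list of 33, both deprived arrays lay above both serum arrays for 10 genes and below them for 18 (24.1% and 36.9% of all genes). In the list on AMP-activated kinase 1 of 21 was called (Prkaa2). The other catalytic subunit gene Prkaa1 read 1041 and 676 against 470 and 413 (0.90 ± 0.26, adjusted p = 0.146), and its other probe set gave 0.04 ± 0.25.

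Selenoproteins use selenium, which serum supplies, and several of their transcripts decay when selenium is scarce. Of 30 measured genes of selenoproteins, metallothioneins and iron handling 0 were called, with 1 at an unadjusted p under 0.05 above and 6 below, and the median of -0.10 became positive (0.01) under 1 alternative setting. Gpx1, the cytosolic glutathione peroxidase, read 894 and 1277 deprived and 4487 and 5035 in serum (-2.14 ± 0.32, adjusted p = 0.0544). Selenow, a small selenoprotein, read 875 and 1277 against 2814 and 3614 (-1.58 ± 0.23, adjusted p = 0.0544), and Selenok read 1148 and 1215 against 2230 and 2286 (-0.93 ± 0.24, adjusted p = 0.13). Gpx4, the lipid hydroperoxide peroxidase, differed less, with 4120 and 5139 against 5438 and 5380 (-0.23 ± 0.17, adjusted p = 0.486). Both deprived arrays lay below both serum arrays for all 4. Over the list of 30 this held for 14 genes, and 3 lay above, against 36.9% and 24.1% of all genes. An effect of selenium was not tested.

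**Figure D3:**
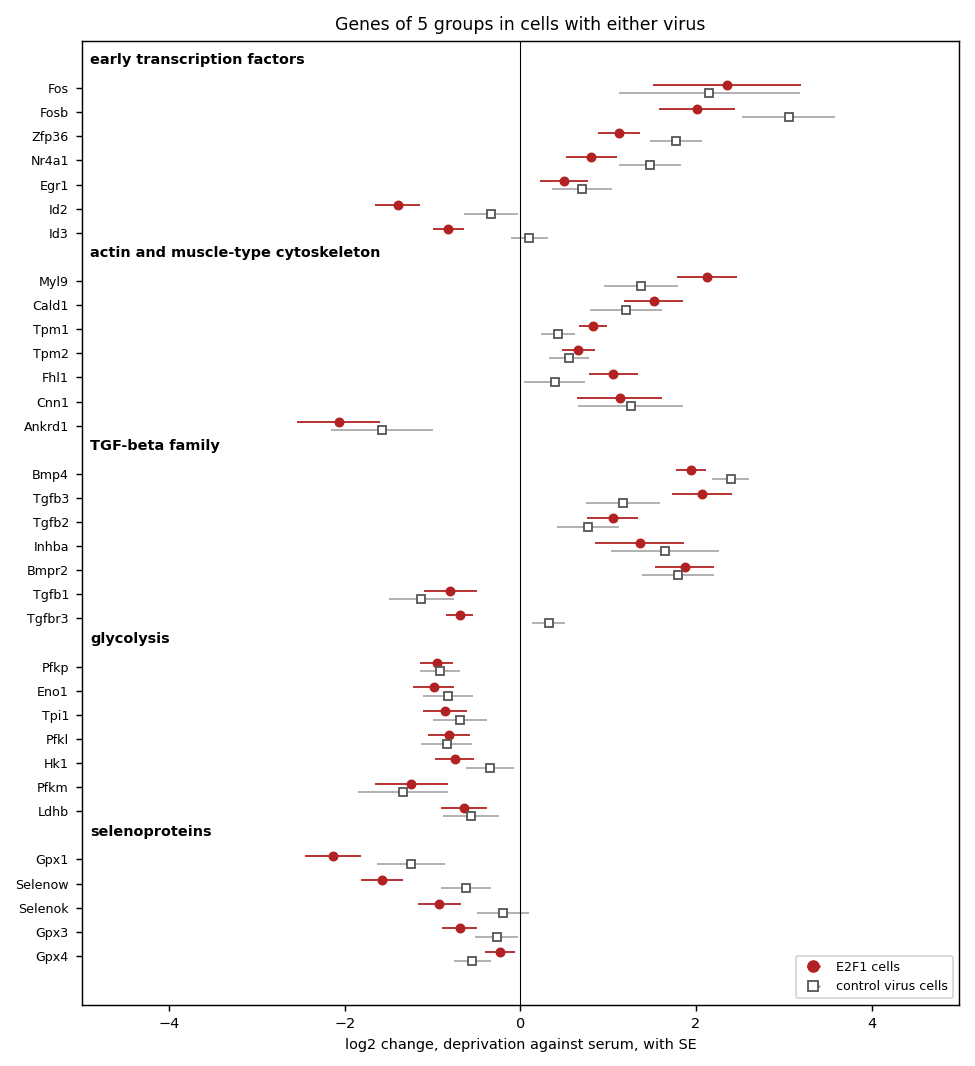
Log2 change from serum to deprivation with SE for genes of 5 groups, in E2F1 cells (circles, 2 and 2 arrays) and in control virus cells (squares, 1 and 2 arrays). The 7 glycolysis genes shown lie below 0 with both viruses. They are a selection from the 33 measured genes of the glycolysis and hypoxia list, of which 14 lay above 0 and 19 below with E2F1. Id3 and Tgfbr3 lie below 0 with E2F1 (-0.82 and -0.69) and above 0 with the control virus (0.10 and 0.32).

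Over all lists, 25 of the 33 had no called member, and of the medians in this paragraph those of the translation, proteasome, MAP kinase, G1/S and p53 lists kept their sign under every alternative setting and the others did not. Among chemokines, interleukins and NF-kB targets 1 of 33 was called (Ptgs1, lower), and the cytokine Il6 read 804 and 681 deprived and 269 and 269 in serum (1.41 ± 0.28, adjusted p = 0.0879). Translation factors had 0 genes at an unadjusted p under 0.05 above and 5 below of 30 (median -0.20), and the proteasome had 0 above and 6 below of 27 (median -0.20). Cholesterol synthesis and uptake had 1 above and 1 below of 24 (median -0.05), fatty acid synthesis 1 and 2 of 22 (0.02), and FOXO and insulin receptor feedback genes 5 and 5 of 33 (0.01). Of the latter, Txnip, which restrains glucose uptake, read 501 and 607 against 266 and 185 (1.25 ± 0.52, adjusted p = 0.242) and the insulin receptor substrate Irs2 read 652 and 748 against 500 and 477 (0.50 ± 0.38, adjusted p = 0.497). Pdgfra, a receptor for platelet-derived growth factor, read 63.8 and 96.0 against 23.0 and 13.7 (1.47 ± 0.46, adjusted p = 0.161). The MAP kinase feedback list had 1 above and 2 below of 11 (-0.30), the G1/S list 1 and 2 of 14 (0.22), and p53 targets 3 and 1 of 14 (0.18). ATF4 targets had 4 and 4 of 36 (-0.12), among them Stc2, the secreted stanniocalcin 2, at 41.0 and 50.7 against 207 and 217 (-1.89 ± 0.34, adjusted p = 0.077). Ribosome biogenesis had 1 and 2 of 33 (0.00), polyamine and nucleotide synthesis 4 and 5 of 26 (0.02), matrix proteases 1 and 3 of 22 (-0.06), and the interferon response 4 and 4 of 34 (-0.01). Heat shock and unfolded protein genes had 1 and 2 of 28 (-0.07).

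The same contrast in control virus cells, measured on 3 other arrays, asks whether these changes go with E2F1. Of the 24 probe sets that rose in E2F1 cells, 22 had the same sign in control virus cells, and of the 13 that fell, 10 did, against 57.8% of all 15866. The median change of the 24 was 1.87 in E2F1 and 1.83 in control virus cells, and that of the 13 was -1.74 and -0.37. Both sets were chosen for their change on the E2F1 arrays, which can enlarge the E2F1 medians but not the control virus ones. The medians therefore do not show a difference between the viruses. An array under a signal of 32 was present for 9 of the 24 and 8 of the 13. In control virus cells limma called 38 probe sets (0.240%), 28 higher (0.176%) and 10 lower (0.0630%), of which 10 are among the 24 and 1, Myod1, among the 13. Jag1 there read 1974 on the deprived array and 325 and 449 in serum (2.32 ± 0.27, adjusted p = 0.0268). Bmp4 read 2671 against 527 and 465 (2.39 ± 0.21, adjusted p = 0.0175), and Gas6 read 2467 against 707 and 608 (1.89 ± 0.20, adjusted p = 0.0203). Myod1 read 55.8 against 1342 and 1374, a 19.1-fold fall (-4.26 ± 0.40, adjusted p = 0.0191). For these 4 genes the deprived array lay outside the serum arrays with either virus. The count of 38 was 1 and 0 without the first and the second control virus serum array, 2 without either E2F1 array in deprivation, 5 if either E2F1 serum array was left out and 64 without either E2F1 array with LY294002.

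The test of the difference between the viruses called 0 probe sets by limma, with 1542 at an unadjusted p under 0.05 (9.72%). The lowest adjusted p was 0.122, shared by Map4k2 and Acta1. Acta1, the skeletal muscle actin, read 7.69 and 9.69 deprived and 8.22 and 14.6 in serum with E2F1, against 120 deprived and 4.21 and 9.58 in serum with the control virus (difference -2.73 ± 0.31). Map4k2 read 12.9 on the deprived control virus array and 80.8 and 53.3 in serum there (-1.50 ± 0.27, adjusted p = 0.0912, difference 3.22 ± 0.35). Prkaa2 read 20.0 against 14.6 and 11.2 in control virus cells (0.32 ± 0.47), and the difference was 2.55 ± 0.60 (adjusted p = 0.348). Among genes that fell, Barhl1 gave 0.45 ± 0.24 in control virus cells (difference -1.99 ± 0.31, adjusted p = 0.24) and Parvb gave -0.67 ± 0.40 (difference -1.71 ± 0.52, adjusted p = 0.402). The kinetochore gene Spc24 read 1026 and 989 deprived and 1686 and 1350 in serum with E2F1, against 28.4 deprived and 240 and 623 in serum with the control virus (difference 2.61 ± 0.74, adjusted p = 0.389). The median of the mitosis list was -0.43 in E2F1 and -1.27 in control virus cells. The control virus serum arrays themselves lay far apart for many genes of this list, with Top2a at 265 and 871 and Ccnb1 at 245 and 877. The deprived control virus array read 133 for Top2a and 186 for Ccnb1. Bub3 differed less, at 1134 and 1553 in serum. The size of the control virus median thus depends on which serum array is used. The deprived control virus group has 1 array, with a 3' to 5' difference of 0.76, and its spread is taken from the other groups. Without either control virus array with LY294002 the test of the difference called 1 probe set.

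**Figure D4:**
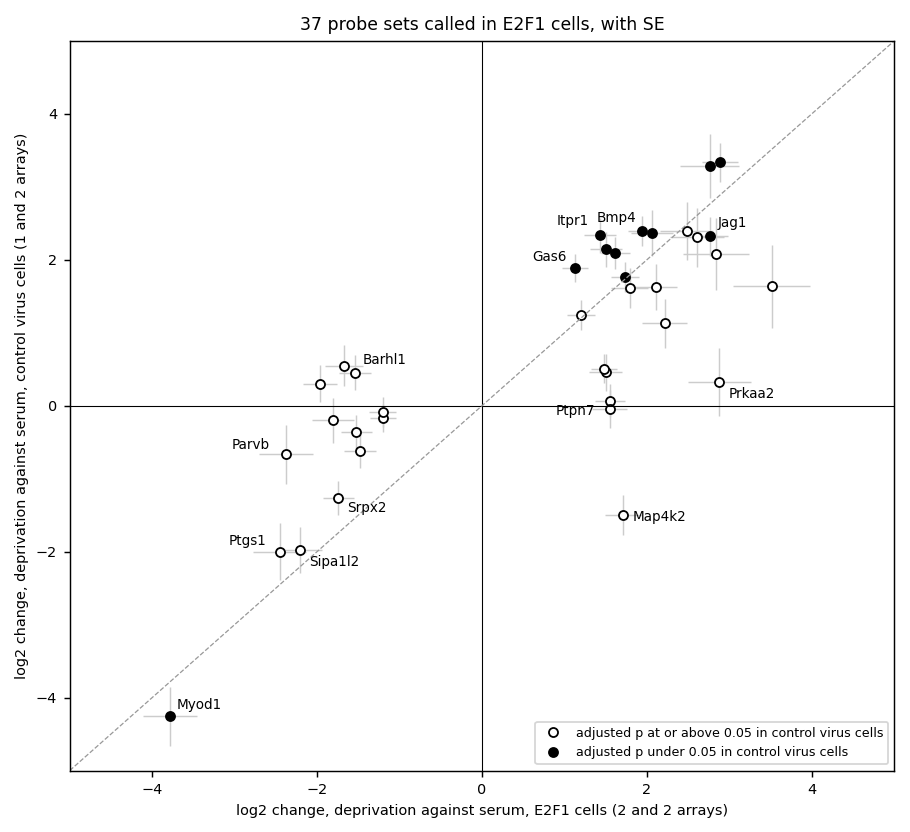
Log2 change from serum to deprivation, with SE, of the 37 called probe sets in E2F1 cells (horizontal) and in control virus cells (vertical); filled points were also called in control virus cells. The dashed line marks equal change. Of the 24 that rose 22 lie above 0 in control virus cells, Map4k2 lies at -1.50 there, and of the 13 that fell Myod1 alone is filled.

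Serum signalling can also be cut at phosphoinositide 3-kinase while serum is present, and deprivation was set against serum with LY294002 in E2F1 cells for that reason. limma called 67 probe sets (0.422%), 54 higher in deprivation (0.340%) and 13 lower (0.0819%). The count was 2 and 3 without the first and the second deprived array, 8 if either array of control virus cells in serum was left out, 32 without either E2F1 serum array, 136 without either control virus array with LY294002 and 16 without the second E2F1 array with LY294002. Higher in deprivation were Pln, which read 89.7 and 36.0 with LY294002 on its brighter probe set and was 12.2-fold higher (3.61 ± 0.33, adjusted p = 0.0134), and Jag1, which read 101 and 107 and was 10.9-fold higher (3.45 ± 0.22, adjusted p = 0.0025).

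Further genes higher in deprivation than with LY294002 were Tgfb3, at 763 and 444 with the inhibitor (8.07-fold, 3.01 ± 0.34, adjusted p = 0.0214), Myl9, at 428 and 299 (8.03-fold, 3.01 ± 0.34, adjusted p = 0.0214), and F3, at 51.8 and 70.8 (7.80-fold, 2.96 ± 0.41, adjusted p = 0.0376). Il6 read 149 and 76.3 with LY294002 and was 6.13-fold higher in deprivation (2.62 ± 0.28, adjusted p = 0.0214). Lower in deprivation were Myod1, at 2011 and 1366 with LY294002 (13.0-fold, -3.70 ± 0.33, adjusted p = 0.0134), Ptgs1, at 2670 and 1302 (6.63-fold, -2.73 ± 0.32, adjusted p = 0.0227), and Srpx2, at 738 and 733 (4.51-fold, -2.17 ± 0.19, adjusted p = 0.0134). Akr1b8, an aldo-keto reductase, read 3021 and 2475 deprived and 7968 and 9218 with LY294002 (3.12-fold, -1.64 ± 0.21, adjusted p = 0.0295). In each of these genes the deprived arrays did not overlap those with LY294002, and the distance between the groups passed the test.

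Other called genes were not told apart from LY294002 by the test. Prkaa2 read 26.7 and 85.0 with LY294002 (deprived minus LY294002 1.70 ± 0.38, adjusted p = 0.12), and Map4k2 read 134 and 183 (0.81 ± 0.22, adjusted p = 0.175). Mycn read 17.8 and 17.9 with LY294002 (-0.12 ± 0.16, adjusted p = 0.786), against 15.5 and 15.1 deprived and 55.9 and 55.7 in serum. Nppb read 10.6 and 6.21 with LY294002 (0.52 ± 0.17, adjusted p = 0.231), and Wnk1 read 2.83 and 2.99 on its dim called probe set (0.10 ± 0.23, adjusted p = 0.88). Both deprivation and LY294002 arrays of these last 3 lay below both serum arrays.

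**Figure D5:**
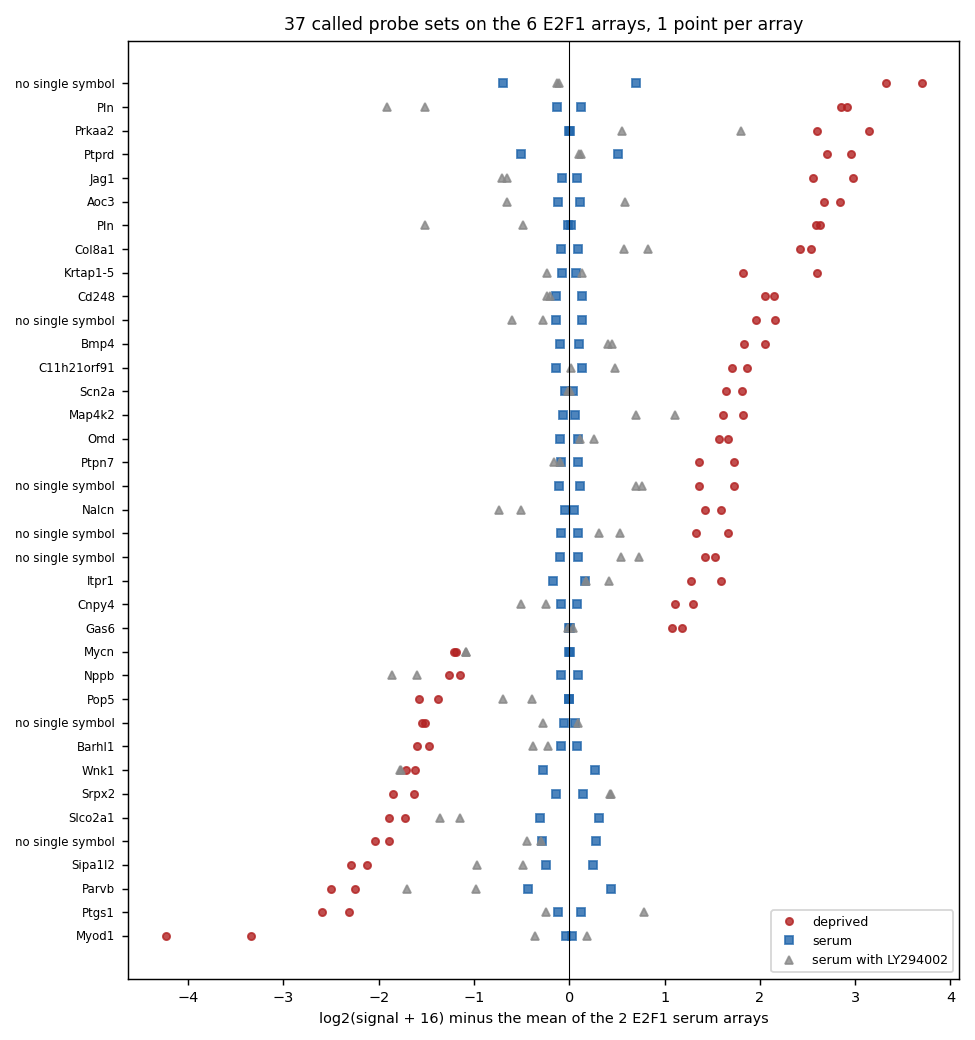
log2(signal + 16) of the 37 called probe sets on the 6 E2F1 arrays, minus the mean of the 2 serum arrays, 1 point per array. Circles are deprived, squares serum and triangles serum with LY294002. Triangles lie beside the squares for Gas6 and Scn2a, to their left for Pln and Jag1, and on the side of the circles for Mycn, Nppb and Wnk1.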

How the data were processed

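Total RNA (6 micrograms) of the 11 samples had been hybridised to Affymetrix RAE230A arrays, 1 colour and 1 sample each. The deposited values are linear intensities (signals), and their trimmed mean (2% off each end) is 500 on every array. MAS5 and RMA are listed in the submitters' processing notes with no version, and neither is tied to these values there. The number of arrays limits the precision.

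Probe sets were named from GEO's platform annotation. Of 15923 probe sets 57 controls were left out, and of the 15866 tested 12783 have 1 symbol, 312 several and 2771 none. The values were taken as deposited, with no further normalization. log2(signal + 16) was fitted in R 4.3.3 by lmFit and eBayes of limma 3.58.1, with 1 mean for each of the 6 groups of virus and medium and the spread shared over all 11 arrays. The 4 comparisons were deprivation against serum in E2F1 cells, the same in control virus cells, their difference, and deprivation against serum with LY294002 in E2F1 cells. Benjamini-Hochberg adjustment ran over all probe sets within a comparison. A gene in a list is represented by its brightest probe set, and 10411 genes had one. The script was tested on simulated data.

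Members and lists were chosen with earlier results of these data known, and the TATA and GC boxes were added to the motifs after seeing the data. Genes were named by a rule: up to 12 in each direction by size among called probe sets with 1 symbol, no overlap of arrays and a brighter group of at least 100 in mean signal, then, from each list, at most 4 called genes a direction or the 2 of lowest p, and a fixed set of serum and E2F1 response genes. Some genes that the rule named, such as Cdc20 and Birc5 of the mitosis list, are not described. Other genes described were chosen after their values were seen. Alternatives were another normalization, other offsets, leaving out dim probe sets, other variance models, the replicate number as a block, a covariate for the 3' to 5' difference, the compared groups alone, and each array left out.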

Additional observations from a re-analysis of the deposited data

How the results depend on the processing

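For deprivation against serum in E2F1 cells the 37 calls became 97 after quantile normalization, 91 after centring on array medians (which moves the median of all probe sets by 0.11), 16 with an offset of 1, 126 with an offset of 64, 133 without the dimmest 30%, 72 with trend and robust variances, 1173 with array weights, 3 with the 3' to 5' covariate and 0 with the compared groups alone. Leaving out 1 array gave 0 to 408, and leaving out both second arrays with LY294002, an alternative added after seeing the data, gave 966. All 37 kept their sign in every setting that tested them (22 were tested without the dimmest 30%). The share of calls that were higher was 64.9%, and 43.8% with an offset of 1, 45.4% with array weights, 100% with the covariate, 46.3% without either E2F1 array with LY294002 and 44.8% without both second ones. The difference between the viruses gave 0 to 1 calls with 1 array left out. In control virus cells the 38 calls became 20 with an offset of 1, 112 with array weights, 0 with the covariate, 0 with the compared groups alone, 0 to 64 with 1 array left out and 189 without both second arrays with LY294002. Against LY294002 the 67 calls became 29 with an offset of 1, 108 with an offset of 64, 125 without the dimmest 30%, 115 with trend and robust variances, 30 with array weights, 129 with the covariate, 0 with the compared groups alone and 2 to 136 with 1 array left out. The cause of these shifts was not tested.

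Deviations of same-numbered arrays correlated by 0.07 between the deprived and serum E2F1 arrays, by 0.30 between the LY294002 arrays of the 2 viruses and by -0.02 to 0.05 between the other groups, so the numbers were not taken as a pairing of deprived and serum arrays. With the replicate number as a block the counts were 6 in E2F1 cells (83.3% of them higher), 3 in control virus cells and 41 against LY294002.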

Other observations

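Genes of the lysosome and of the circadian clock were measured in deprived E2F1 cells and not described above. In the lysosome and autophagy list limma called 0 of 39, with 5 at an unadjusted p under 0.05 above and 3 below and a median of 0.02 that changed sign under 1 alternative setting. The enzymes Gla, Hexa, Gaa and Ctsa, which degrade lipids, glycogen and proteins in lysosomes, were among the 5. Gla read 629 and 564 deprived against 345 and 271 in serum (0.93 ± 0.24, adjusted p = 0.124), and Gaa read 2290 and 1831 against 1266 and 1229 (0.71 ± 0.22, adjusted p = 0.161). Atg7, an enzyme of autophagosome formation, was among the 3 and read 144 and 133 against 226 and 215 (-0.62 ± 0.21, adjusted p = 0.185). Both deprived arrays lay outside both serum arrays for these 3 genes, and the media did not overlap for 60.1% of all probe sets.

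In the glucocorticoid and clock list 0 of 21 were called, with 4 at an unadjusted p under 0.05 above and 1 below. Per1, a repressor of the clock, read 106 and 78.0 deprived against 34.5 and 27.5 in serum (1.19 ± 0.22, adjusted p = 0.077). The clock activator Clock read 327 and 246 against 152 and 139 on its brightest probe set (0.89 ± 0.23, adjusted p = 0.126), while its 2 other probe sets gave 0.28 ± 0.21 and -0.86 ± 0.43 (adjusted p = 0.493 and 0.314). Its partner Bmal1 read 219 and 199 against 231 and 265 (-0.23 ± 0.25, adjusted p = 0.637). In the respiratory chain 0 of 36 were called, with 2 above and 6 below at an unadjusted p under 0.05. Atp5pb, a subunit of ATP synthase, read 3424 and 3932 against 6342 and 7480 (-0.91 ± 0.28, adjusted p = 0.158).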
